A study of Homo sapiens with 44 samples.

Results

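The genes described here belong to the TRAIL and caspase 8 pathway, a route by which a signal at the cell surface starts apoptosis. The rule took every probe set (a group of short probes on the array read as 1 value) whose only annotated gene symbol is TNFSF10, FADD, CASP8, CASP10, CFLAR, RIPK1 or CASP8AP2. Of these 7 genes, 6 were measured, by 22 of the 19724 probe sets that name 1 gene, among 12165 genes in all. CFLAR has 11 of these probe sets, CASP10 has 4, TNFSF10 has 3, CASP8 has 2, and FADD and CASP8AP2 have 1 each. RIPK1, the receptor-interacting kinase of the same complexes, was not analysed here, because no probe set of the annotation table names it alone.

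The RNA came from 4 human acute myeloid leukemia (AML) cell lines, promyelocytic HL-60, the KMT2A-rearranged lines THP-1 and MOLM-14, and monocytic U937, and was read on 44 Affymetrix human expression arrays. Each line received 1 of 5 hairpins by infection: shGSK3A_5 or shGSK3A_6 against GSK3A, shGSK3B_1 or shGSK3B_2 against GSK3B (2 arrays each), or a scrambled control, shControl (3 arrays). GSK3A and GSK3B encode the alpha and the beta isoform of the kinase GSK-3. All groups shared puromycin selection at 1 µg/mL, begun 48 h after infection, and RNA isolation 48 h later, so no group was free of virus or drug. The replicates are called biological in the labels, with nothing on separate cultures or infections, and p-values may then measure technical spread only. Each array averages a whole culture, in which fewer cells of a kind and less RNA per cell cannot be told apart.

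TRAIL, the product of TNFSF10, is a ligand of the tumour necrosis factor family that myeloid cells make, among others. When it binds its death receptors, the adaptor FADD recruits the initiator caspases 8 and 10, which activate one another and then cut the executioner caspases. FLIP, the product of CFLAR, resembles caspase 8 but lacks its activity, and it competes for the same adaptor. CASP8AP2 encodes FLASH, named for its binding to caspase 8 and known chiefly for its part in the transcription and 3′ processing of histone messenger RNA in S phase.

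On GRCh38, CFLAR (2:201116164-201176687), CASP10 (2:201183141-201229406) and CASP8 (2:201233463-201287711) are neighbours on chromosome 2. TNFSF10 lies at 3:172505508-172523430, CASP8AP2 at 6:89829880-89874436 and FADD at 11:70203296-70207390. The promoters of the 3 genes with the largest differences described below are shown because lists of interferon response genes and of genes that act with CASP8AP2 in S phase are followed further on. Each run is the 250 bases before the annotated RefSeq start (GRCh38.p14), 5′ to 3′ on the gene's strand, at chr3:172523431-172523680 (minus strand) for TNFSF10, chr2:201233213-201233462 (plus strand) for the most upstream start of CASP8, and chr6:89829630-89829879 (plus strand) for CASP8AP2. Capitals mark a match to the interferon-stimulated element GAAANNGAAA in TNFSF10 (on the opposite strand), to the interferon-gamma activated site TTCNNNGAA in CASP8 and to the E2F site TTTNGCGC in CASP8AP2.
TNFSF10: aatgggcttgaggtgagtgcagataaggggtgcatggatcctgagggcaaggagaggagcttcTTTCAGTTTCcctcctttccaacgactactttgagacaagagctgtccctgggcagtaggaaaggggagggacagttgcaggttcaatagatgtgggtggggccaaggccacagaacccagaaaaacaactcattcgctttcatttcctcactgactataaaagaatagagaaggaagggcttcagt
CASP8: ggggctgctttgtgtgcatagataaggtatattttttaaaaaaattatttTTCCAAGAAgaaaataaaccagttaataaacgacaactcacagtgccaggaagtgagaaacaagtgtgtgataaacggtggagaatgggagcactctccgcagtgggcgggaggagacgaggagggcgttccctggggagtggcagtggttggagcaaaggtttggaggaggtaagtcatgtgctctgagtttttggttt
CASP8AP2: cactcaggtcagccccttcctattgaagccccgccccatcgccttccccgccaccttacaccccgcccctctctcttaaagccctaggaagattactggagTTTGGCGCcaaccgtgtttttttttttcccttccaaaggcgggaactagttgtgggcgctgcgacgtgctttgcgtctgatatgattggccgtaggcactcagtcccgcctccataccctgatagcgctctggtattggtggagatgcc

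Motifs were searched on both strands of all 35116 windows of this length, which belong to 27305 genes. The interferon-stimulated element was found in 3.02% of them, the interferon-gamma activated site in 6.57% and the E2F site in 1.51%. The NF-kB site GGGNNNNNCC was found in 54.4% of windows and the CCAAT box in 32%, so the presence of either says little of a single promoter. The other 2 windows of CASP8 hold neither interferon motif. The CASP8AP2 window also holds 2 CCAAT boxes on the opposite strand, and the 4 windows of CFLAR and the 1 window of FADD hold neither interferon motif. A match is a run of letters and not a measured binding site.

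Deposited intensity, a linear measure of probe set brightness, had array medians between 18.95 and 22.9. The arrays lay in plate columns 1 to 6 (control replicates 1 and 2 and the first replicate of every hairpin) or 7 to 11 (the others), and in MOLM-14 and U937 replicates of the same columns deviated together. Of the targets, GSK3B read 22.4 to 97.7 with its own hairpins and 140.2 to 203.6 with the control. Its mean with these hairpins was 46.7% of the control in THP-1, 27.1% in U937, 24.1% in HL-60 and 18.9% in MOLM-14. This change differed between the lines (F-test, adjusted p = 0.0022). GSK3A on 632_at differed by only -0.09 ± 0.03 (log2, SE) with the GSK3A hairpins over the 4 lines, which passed the test (adjusted p = 0.0204). Its arrays overlapped the controls in every line but HL-60. The mean on 632_at was 83.7% of the control in HL-60, 92.4% in U937, 96.6% in THP-1 and 97.6% in MOLM-14. On the dimmer 202210_x_at it was 76.4% in HL-60, 96.7% in U937, 93.6% in THP-1 and 104.9% in MOLM-14. The leukocyte gene PTPRC read 308 to 1059 on all arrays, while CD3D, CD3E and CD2 of T cells read 6.12 to 17.3. SPI1, a myeloid transcription factor, was dim (15.4 to 35.8), and MPO, a promyelocyte granule gene, read 5357 to 5827 in control HL-60 and 10.6 to 12.3 in control U937.

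With the GSK3A hairpins, CASP8 and TNFSF10 rose, CASP8AP2 fell, and CFLAR was lower on the brightest of its probe sets, averaged over the 4 lines. CASP10 and FADD did not pass the test. These 4 of 6 genes, each on its brightest probe set, passed limma's test at an adjusted p under 0.05, against 20.1% of all genes. By probe set, 6 of 22 passed (4 higher, 2 lower), against 16.9% of all probe sets. With the GSK3B hairpins 0 of the 6 genes passed, where 3.10% of all genes did, and 1 of 22 probe sets passed, against 2.54%. With the plate columns as a block 2 genes passed, CASP8 and CFLAR. Without the block 4 of the 6 had an unadjusted p under 0.05. The share of all genes was counted neither with the block nor at an unadjusted p under 0.05. The GSK3A and GSK3B comparisons share the control arrays.

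**Figure D1:**
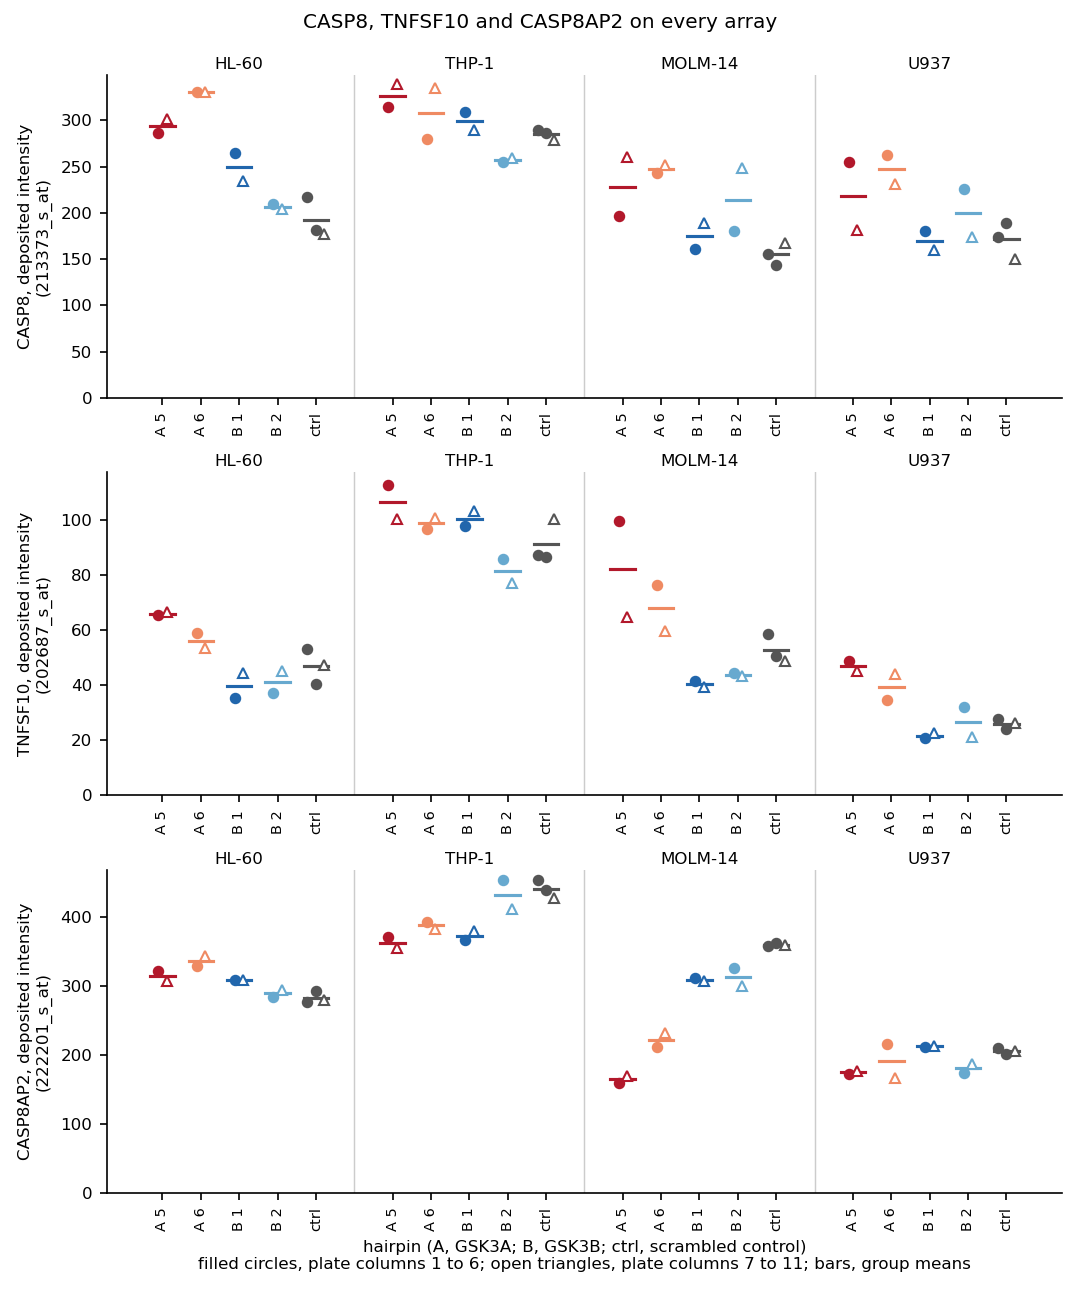
Deposited intensity (y axis, linear, from 0) of CASP8, TNFSF10 and CASP8AP2 on each of the 44 arrays, by line and hairpin, with group means as bars and the plate columns as symbols. CASP8 and TNFSF10 were above every control array of their line on 14 of 16 GSK3A hairpin arrays each, and CASP8AP2 in MOLM-14 was near 159 to 232 with those hairpins, against 357 to 362 with the control.

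TNFSF10, the ligand, was higher with the GSK3A hairpins and showed no such rise with the GSK3B hairpins. On 202687_s_at in HL-60 it read 65.5 and 66.6 with hairpin 5 and 59.1 and 53.4 with hairpin 6, against 53.0, 40.4 and 47.5 with the control. In U937 it read 48.9 and 45.1 with hairpin 5 and 34.5 and 44.1 with hairpin 6, against 27.6, 24.2 and 26.1 with the control. All 4 GSK3A hairpin arrays lay above all 3 controls in both lines. In MOLM-14 the readings were 99.6 and 64.8 with hairpin 5 and 76.6 and 59.8 with hairpin 6, against 58.8, 50.7 and 48.9 with the control. In THP-1, the line with the most TNFSF10, they were 112.8 and 100.3 with hairpin 5 and 97.0 and 100.7 with hairpin 6, against 87.4, 86.5 and 100.6 with the control. The groups were apart in MOLM-14 and overlapped in THP-1.

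The mean rise of TNFSF10 with the GSK3A hairpins was 0.32 ± 0.05 (log2, SE), or 1.25-fold, with an adjusted p of 5.1e-05. Its change was 0.48 in U937 (adjusted p = 0.0060) and 0.40 in MOLM-14 (adjusted p = 0.0091), and 0.26 in HL-60 and 0.14 in THP-1, where it did not pass. The mean level was 166% of the control in U937 and 112% in THP-1. An F-test did not find that the change differed between the lines (adjusted p = 0.51). The change was 0.38 within plate columns 1 to 6 (adjusted p = 0.0070) and 0.26 within columns 7 to 11, where it did not pass (adjusted p = 0.14). Of 16 GSK3A hairpin arrays, 15 lay above every control array of the same line and columns. In columns 7 to 11 this is control replicate 3 alone, and the share over all probe sets was not counted.

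With the GSK3B hairpins, TNFSF10 on 202687_s_at read 77.1 to 103.2 in THP-1, 35.4 to 45.1 in HL-60, 39.2 to 44.3 in MOLM-14 and 20.8 to 32.1 in U937. Only in MOLM-14 did all 4 arrays lie below the controls given above, and the mean difference was -0.12 ± 0.05 (log2, SE; adjusted p = 0.31). The second probe set of the gene, 202688_at, gave the 1 call among the members with these hairpins. There TNFSF10 fell by 0.27 on the log2 scale (SE 0.06, adjusted p = 0.0099), and 15 of 16 arrays lay below all controls of their line, with 12 to 19.9 against 20.6 to 25.9 in U937. Within either set of plate columns this fall was of similar size (-0.27 and -0.24) and did not pass, nor did it without HL-60 (-0.21) or with hairpin as a random block. On the same probe set the GSK3A hairpins gave a rise of 0.23 (SE 0.06, adjusted p = 0.0061), with 0.50 in MOLM-14, 0.45 in U937, 0.05 in HL-60 and -0.08 in THP-1, and this call was lost within either set of columns, without MOLM-14 (0.14) and without U937 (0.16). The third, 214329_x_at, was dim (7.28 to 36.5) and did not pass with either target.

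FADD, the adaptor, did not pass the test with either target. Over all arrays it lay between 172 and 300.5, a span of less than 2-fold. In HL-60 it read 252 and 255 with shGSK3A_5 and 217.5 and 229 with shGSK3A_6, against 221, 222 and 225 with the control. The mean difference was 0.01 ± 0.06 with the GSK3A hairpins and -0.02 ± 0.06 with the GSK3B hairpins (log2, SE), with 95% intervals of -0.11 to 0.13 and -0.15 to 0.10. FADD moved with the plate columns in MOLM-14, where columns 7 to 11 minus columns 1 to 6 gave 0.32, and in U937, where they gave -0.29 (log2). In MOLM-14 the controls themselves read 206.5 and 231 in the first columns and 289 in the second.

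CASP8, the main initiator caspase of the pathway, showed the largest rise of the 6 genes over the lines. On 213373_s_at in HL-60 it read 287 and 301 with hairpin 5 and 331 and 331 with hairpin 6, against 218, 181 and 178 with the control. In MOLM-14 it read 197 and 260.3 with hairpin 5 and 244 and 252 with hairpin 6, against 155, 144 and 168 with the control. No GSK3A hairpin array of these lines overlapped a control. In U937 the readings were 255 and 181 with hairpin 5 and 263 and 232 with hairpin 6, against 174.5, 189 and 151 with the control. In THP-1, whose control level was highest, they were 314 and 339 with hairpin 5 and 280.3 and 335 with hairpin 6, against 289.7, 287 and 279 with the control. In each of these lines 1 of the 4 arrays fell among the controls.

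The mean rise of CASP8 was 0.44 ± 0.06 (log2, SE), or 1.35-fold, with an adjusted p of 1.8e-06. It was 0.64 in HL-60 (adjusted p = 0.00035), 0.56 in MOLM-14 (0.00079) and 0.41 in U937 (0.028), and 0.13 in THP-1, where it did not pass. As intensity, the mean was 163% of the control in HL-60 and 111% in THP-1. The change was not found to differ between the lines (F-test, adjusted p = 0.16). It passed within plate columns 1 to 6 (0.39, adjusted p = 0.0032) and within columns 7 to 11 (0.50, adjusted p = 0.048). Of 16 arrays, 15 lay above the controls of their own line and columns, in columns 7 to 11 control replicate 3 alone. The share over all probe sets was not counted. CASP8 itself differed between the columns, by 0.25 in MOLM-14 and -0.26 in U937 (columns 7 to 11 minus 1 to 6, log2).

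The dimmer probe set of CASP8, 207686_s_at, rose by 0.18 ± 0.05 (log2, SE; adjusted p = 0.013), with 0.39 in HL-60, 0.24 in U937, 0.03 in MOLM-14 and 0.04 in THP-1, and it did not pass without HL-60 (0.10), without U937 (0.16, adjusted p = 0.065) or within plate columns 7 to 11 (0.18, adjusted p = 0.29). In HL-60 it read 41.1, 39.3, 47.2 and 35.4 with the GSK3A hairpins, against 21.5, 30.3 and 27.5 with the control, with no overlap. In MOLM-14, where the brighter probe set rose, it read 27.1, 23.1, 29.8 and 19.8, against 26.2, 27.6 and 17.3, so the probe sets differ there. With the GSK3B hairpins CASP8 on 213373_s_at had 264 and 235 (shGSK3B_1) and 209 and 204 (shGSK3B_2) in HL-60, above the control mean of 192. Over the lines the mean difference was 0.14 ± 0.06 (log2, SE), which did not pass (adjusted p = 0.27) but did with the plate columns as a block (0.14, adjusted p = 0.014), and the dimmer probe set gave 0.00 ± 0.05.

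CASP10, the second initiator caspase, was dim: on 205467_at it read 10.8 to 27.0 and was above its array's median on only 7 of 44 arrays. In HL-60 it read 19.6 and 20.9 with hairpin 5 and 16.2 and 18.9 with hairpin 6, against 13.5, 15.2 and 13.2 with the control. This was a rise of 0.25 ± 0.07 (log2, SE; adjusted p = 0.015), with no overlap. In THP-1 the 4 GSK3A hairpin arrays read 18.4, 23.2, 18.2 and 22, against 21.4, 24.5 and 27.0, a difference of -0.14 ± 0.07 that did not pass. The change thus differed between the lines (F-test, adjusted p = 0.048), and the mean over the lines, 0.08 ± 0.03, did not pass (adjusted p = 0.088). It was 0.16 (adjusted p = 0.0044) without THP-1. Its 3 other probe sets read 5.98 to 19.2, and none passed.

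**Figure D2:**
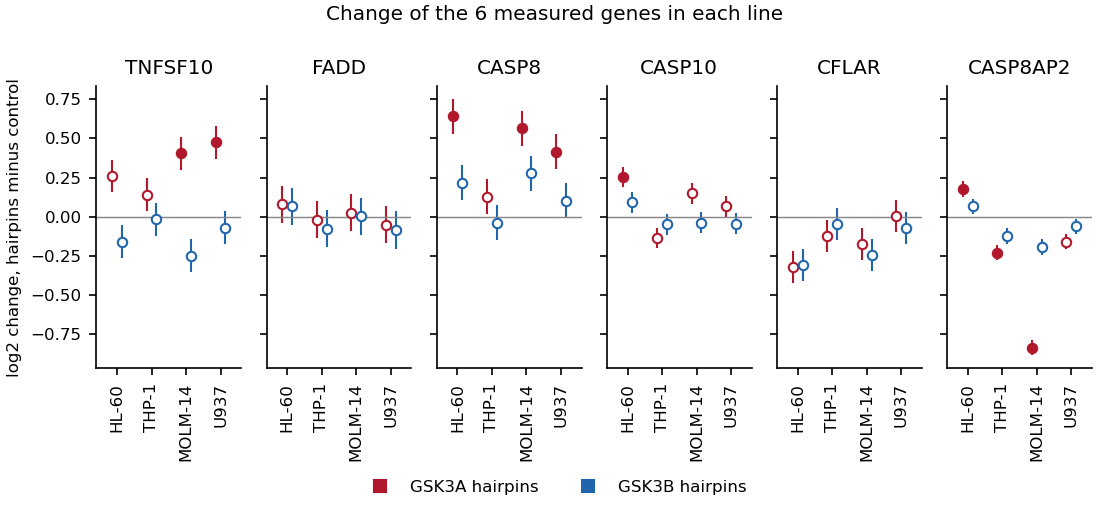
Log2 change on the brightest probe set (y axis, hairpins minus control, bars 1 SE) of each measured gene in each line, GSK3A hairpins in red and GSK3B hairpins in blue, with filled points at an adjusted p under 0.05. CASP8 and TNFSF10 are above 0 with the GSK3A hairpins in all 4 lines, CASP8AP2 is at -0.84 in MOLM-14 and 0.18 in HL-60, and no GSK3B point is filled.

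Within single lines the GSK3A hairpins moved 3 of the 6 genes in HL-60 (CASP8, CASP8AP2 and CASP10, all higher), where 8.40% of all genes passed. In MOLM-14 they moved 3 (CASP8 and TNFSF10 higher, CASP8AP2 lower), against 15.0%, and in U937 2 (CASP8 and TNFSF10), against 6.06%. In THP-1 they moved 1, CASP8AP2, against 1.71%. With the GSK3B hairpins 0 of 6 passed in each line, and the shares of all genes that passed were 1.24% in MOLM-14, 0.896% in HL-60, 0.156% in U937 and 0.0493% in THP-1. At an unadjusted p under 0.05 there were 4 in MOLM-14, 1 each in HL-60 and THP-1, and 0 in U937. The share of all genes at that threshold was not counted.

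CFLAR, the inhibitor, fell with the GSK3A hairpins on the brightest of its 11 probe sets, and no other passed over the lines with either target. On 209939_x_at in HL-60 it read 331, 336, 310.3 and 329 with the GSK3A hairpins and 314, 340 (shGSK3B_1), 348 and 318 (shGSK3B_2) with the GSK3B hairpins, against 462, 356 and 420 with the control. All 8 hairpin arrays lay below the 3 controls. In MOLM-14 it read 121, 122, 113 and 126 with the GSK3A hairpins and 104, 124, 114 and 119.8 with the GSK3B hairpins, against 142, 132 and 143 with the control, again with no overlap. In THP-1 and U937 the groups overlapped: in U937 it read 79.5, 59.3, 72.7 and 56.8 with the GSK3A hairpins, against 70.1, 73.0 and 54.4.

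The mean fall of CFLAR with the GSK3A hairpins was 0.15 on the log2 scale (value -0.15, SE 0.05, adjusted p = 0.038), close to the threshold. It lost its call within either set of plate columns and when HL-60, THP-1 or MOLM-14 was left out. The GSK3B hairpins gave -0.17 ± 0.05, which did not pass (adjusted p = 0.086), but with the plate columns as a block the value was -0.16 and passed (adjusted p = 0.0033). The second probe set, 210563_x_at, gave -0.13 and -0.16, while 211316_x_at gave 0.10 with the GSK3A hairpins, and the median over all 11 probe sets was 0.02 for GSK3A. The probe sets ending in _x_at can read more than 1 transcript, and which CFLAR forms each reads was not examined. Values of CFLAR are for these reasons given per probe set.

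**Figure D3:**
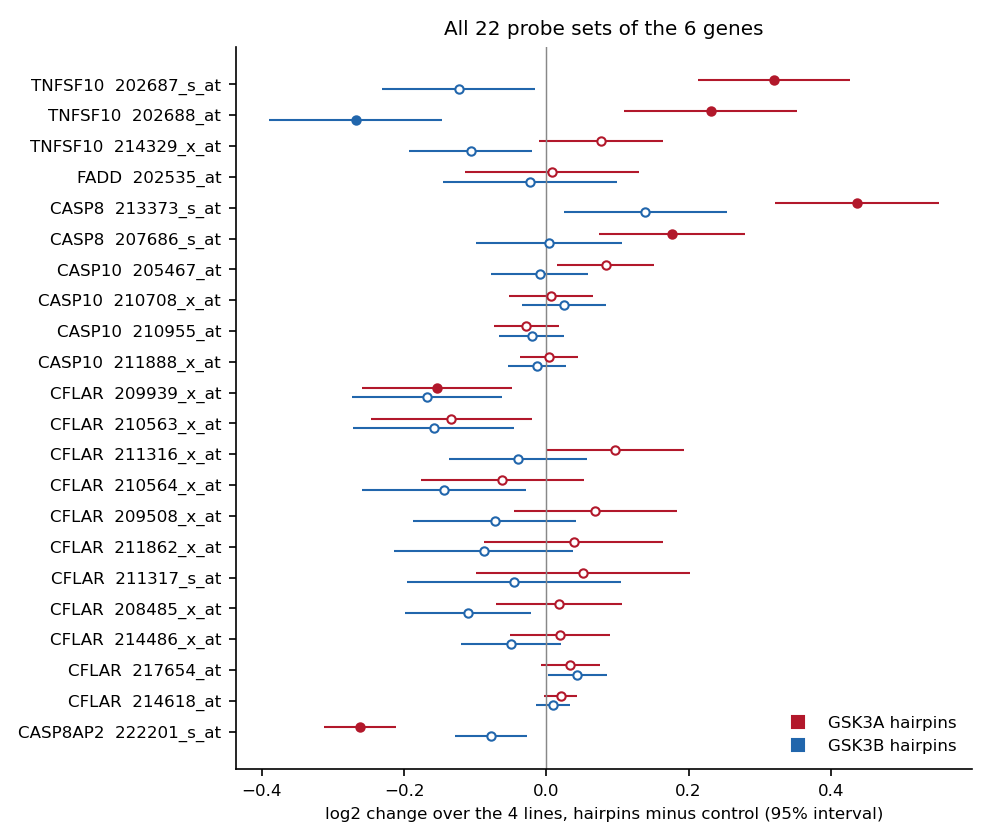
Log2 change over the 4 lines (x axis, hairpins minus control, bars the 95% interval) of each of the 22 probe sets, brightest first within a gene, with filled points at an adjusted p under 0.05. The CASP8 probe sets and 2 of the 3 TNFSF10 probe sets are filled to the right for GSK3A, while those of CFLAR lie on both sides of 0, from -0.15 to 0.10.

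CASP8AP2, the FLASH gene, had in MOLM-14 the largest change of the 6 genes with either target in any line. In MOLM-14 it read 159 and 169 with hairpin 5 and 211 and 231 with hairpin 6, against 357, 362 and 358 with the control, or 53.6% of the control mean. The fall was 0.84 on the log2 scale (value -0.84, SE 0.05, adjusted p = 1.5e-11), and the groups were far apart in both sets of plate columns. In THP-1 it read 370.0, 355, 393 and 383 with the GSK3A hairpins, against 453, 438 and 427, which was lower by -0.23 ± 0.05 (adjusted p = 0.013), without overlap. In HL-60 it was higher, with 321, 307, 329 and 343, against 276, 293 and 279 (0.18 ± 0.05, adjusted p = 0.026), also without overlap. In U937 it read 172, 177, 216 and 167, against 209.9, 201 and 205, with 1 array above the controls and the others below, and -0.16 ± 0.05 did not pass (adjusted p = 0.062).

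The change of CASP8AP2 with the GSK3A hairpins differed between the lines (F-test, adjusted p = 3.6e-09), as it did for 7.10% of all genes, and for 0.197% with the GSK3B hairpins, where 0 of the 6 members passed. CASP8AP2 and CASP10 were the 2 members of 6 that differed between lines with GSK3A. Its mean over the lines, -0.26 ± 0.02 (log2, SE; adjusted p = 1.3e-08), rests on MOLM-14: without that line it was -0.07 (adjusted p = 0.13). Within plate columns 1 to 6 it was -0.26 (adjusted p = 0.019), and within columns 7 to 11 -0.26 (adjusted p = 0.20), in fits that leave 12 and 8 residual degrees of freedom. With the GSK3B hairpins it read 310.8, 307, 325 and 299 in MOLM-14, below the controls on all 4 arrays (-0.19 ± 0.05, adjusted p = 0.054), and -0.08 ± 0.02 over the lines (adjusted p = 0.11).

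Set directly against each other without the controls, the targets differed for 4 of the 6 genes, where 21.0% of all genes differed. TNFSF10 was higher with the GSK3A than with the GSK3B hairpins by 0.44 ± 0.05 (log2, SE; adjusted p = 1.1e-07), and by 0.50 ± 0.05 on 202688_at. CASP8 was higher by 0.30 ± 0.05 (adjusted p = 0.00011) and CASP10 by 0.09 ± 0.03 (adjusted p = 0.034). CASP8AP2 was lower by 0.18 (difference -0.18, SE 0.02, adjusted p = 9.0e-07). CFLAR on 209939_x_at differed by 0.01 (95% interval -0.08 to 0.11) and FADD by 0.03 (-0.08 to 0.14). Of the other CFLAR probe sets, 211316_x_at and 208485_x_at passed, both higher with the GSK3A than with the GSK3B hairpins. Within each set of plate columns CASP8 and TNFSF10 passed, while CASP8AP2 (-0.18 and -0.19) and CASP10 (0.06 and 0.12) did not. Without MOLM-14 CASP8AP2 and CASP10 did not pass either, and CASP10 also lost its call with median scaling, with hairpin as a random block, without HL-60 and without U937.

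Each GSK3A hairpin alone moved the same 3 genes over the lines, CASP8, TNFSF10 and CASP8AP2, where 21.3% of all genes passed for hairpin 5 and 15.8% for hairpin 6. CASP8 rose by 0.39 with hairpin 5 and 0.48 with hairpin 6, and TNFSF10 by 0.40 and 0.24 in that order. CASP8AP2 was lower by -0.35 with hairpin 5 and -0.17 with hairpin 6. This was the 1 member that differed between the hairpins (hairpin 5 minus hairpin 6, -0.18 ± 0.03, adjusted p = 0.00026), where 16% of all genes did. For TNFSF10 that difference was 0.16 (95% interval 0.02 to 0.30, adjusted p = 0.14), for CASP8 -0.09 (-0.24 to 0.06) and for FADD 0.19 (0.03 to 0.35, adjusted p = 0.11), which passed with the plate columns as a block (adjusted p = 0.00016). With shGSK3B_1 and shGSK3B_2 0 of the 6 passed, against 4.37% and 5.81% of all genes. An unadjusted p under 0.05 was found for 3 of 6 with each, and the share of all genes at that threshold was not counted. The GSK3B hairpins differed from each other for 0 of 6 members, against 10.2%.

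In the control arrays 5 of the 6 genes differed between the lines, all but FADD, as did 67.6% of all genes. TNFSF10 averaged 91.5 ± 7.9 in THP-1, 52.8 ± 5.3 in MOLM-14, 47.0 ± 6.3 in HL-60 and 26.0 ± 1.7 in U937 (SD, n = 3 arrays each), and of the neighbours in this order only MOLM-14 and HL-60 did not differ (adjusted p = 0.80). CASP8 averaged 285 ± 6 in THP-1, 192 ± 22 in HL-60, 171 ± 19 in U937 and 156 ± 12 in MOLM-14, and only THP-1 differed from the others. CASP10 on 205467_at had the same pattern, 24.3 ± 2.8 in THP-1 and 13 to 14 in the other lines. Its probe set 210708_x_at also differed between the lines (F-test, adjusted p = 0.00095) but was highest in HL-60. There it averaged 17.6 in HL-60 and 14.4 in THP-1, and HL-60 minus THP-1 gave 0.21 (log2, adjusted p = 0.0066). THP-1, the line with the most TNFSF10 and CASP8, was also the line with the lowest values of their changes on the brightest probe sets. The F-tests above did not find these changes to differ between lines.

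CFLAR on 209939_x_at ran in another order, 413 ± 53 in HL-60, 148 ± 8 in THP-1, 139 ± 6 in MOLM-14, then 65.8 ± 10.0 in U937, in which THP-1 and MOLM-14 did not differ (adjusted p = 0.92). On this probe set control HL-60 was above control THP-1 by 1.40 ± 0.11 and above control U937 by 2.38 ± 0.11 (log2, SE). The order was the same on 211316_x_at and 211862_x_at, while on 211317_s_at HL-60 (79.1) and THP-1 (79.9) were close. The distance of HL-60 from THP-1 depended on the probe set. On 211316_x_at, 211862_x_at and 211317_s_at HL-60 minus THP-1 gave 0.13, 0.09 and 0.07 (log2, normalized), which did not pass. There HL-60 minus U937 gave 1.24, 1.00 and 1.11. HL-60 minus THP-1 passed on 210563_x_at (1.35), 210564_x_at (0.60), 209508_x_at (0.35), 208485_x_at (0.34) and 214486_x_at (0.18). On the dim 217654_at and 214618_at it gave -0.05 and -0.03 and did not pass. CASP8AP2 averaged 440 ± 13 in THP-1, 359 ± 3 in MOLM-14, 283 ± 9 in HL-60 and 205 ± 4 in U937, and all neighbours differed (the highest adjusted p was 0.00017). FADD averaged 201 to 242, and the F-test did not find a difference (adjusted p = 0.27). Counted by probe set, 17 of 22 differed between the lines, but 11 of the 22 are of CFLAR and the share of all probe sets was not counted.

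**Figure D4:**
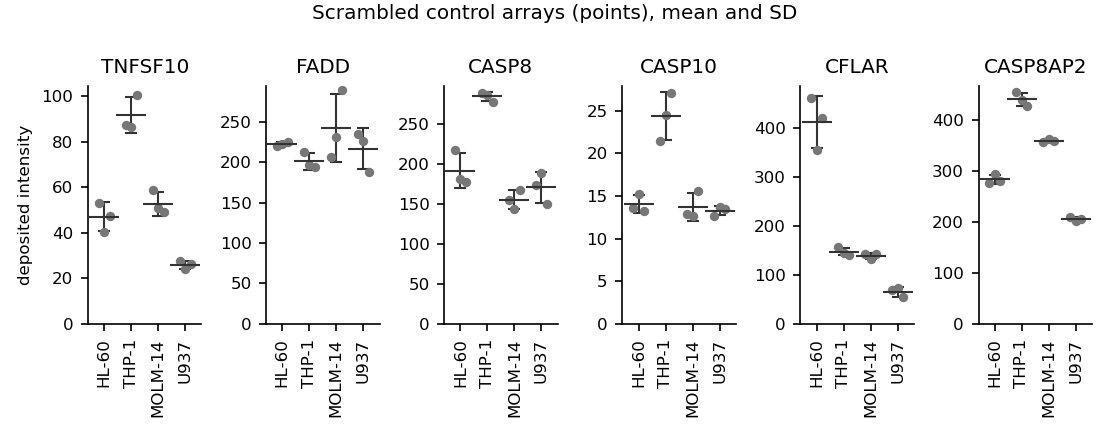
Deposited intensity (y axes, linear, from 0, a scale for each gene) of the brightest probe set on the 3 control arrays of each line, with mean and SD. CFLAR is highest in HL-60 (413), TNFSF10, CASP8, CASP10 and CASP8AP2 are highest in THP-1, and FADD lies between 201 and 242 in all lines.

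The rest of the pathway was followed through 6 gene lists, to be read against the 20.1% of all genes that passed with the GSK3A hairpins and the 3.10% with the GSK3B hairpins, both directions together. Among death receptors and ligands, 3 of 14 measured genes rose with the GSK3A hairpins and 0 fell, with a median change of 0.02 (log2), against 0.00 over all genes, so that the count is near the share of all genes. Those that passed were TNFRSF21 (death receptor 6; 0.65 ± 0.08, adjusted p = 1.9e-06, passing in each line), TNFRSF10B (the TRAIL receptor DR5; 0.28 ± 0.07, adjusted p = 0.0051) and TNFRSF1B (a receptor of tumour necrosis factor; 0.18, adjusted p = 0.043). TNFRSF10B rose by 0.45 in both HL-60 and MOLM-14 and gave -0.03 in THP-1. FASLG was dim (5.93 to 8.75) and gave 0.03. For the GSK3B hairpins 0 of 14 passed.

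Among partners and regulators of the complex, 5 of 21 rose and 3 fell with the GSK3A hairpins (median 0.02), and 1 rose and 1 fell with the GSK3B hairpins. PEA15, a death effector domain protein that binds FADD and caspase 8, rose by 0.42 ± 0.04 (adjusted p = 3.2e-08), CYLD, a deubiquitinase of RIPK1, by 0.29 ± 0.06 (adjusted p = 0.00038), and BIRC2, a ubiquitin ligase of RIPK1, by 0.23 ± 0.04 (adjusted p = 7.3e-05). PEA15 also rose by 0.15 with the GSK3B hairpins (adjusted p = 0.043), with which CUL3, the scaffold of a ligase that modifies caspase 8, fell by 0.17 on the log2 scale (adjusted p = 0.0028). Among downstream effectors 4 of 16 rose and 4 fell with GSK3A (median -0.06), and 0 rose and 3 fell with GSK3B. ROCK1, a kinase cut by caspases, rose by 0.19 with the GSK3A hairpins (adjusted p = 3.6e-06). CYCS (cytochrome c) and PARP1 (a caspase substrate) fell with both targets, with -0.13 and -0.15 for GSK3A and -0.15 and -0.24 for GSK3B, and HTRA2, a mitochondrial protease, fell with GSK3B (-0.27). Of the inflammatory caspase list 1 of 5 rose with GSK3A, again near the share of all genes, CASP1 (0.22 ± 0.05, adjusted p = 0.0024), while PYCARD, GSDMD and CASP4 gave 0.05, -0.01 and 0.04.

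Interferon response genes, a group to which TNFSF10 is known to belong as a target, rose with the GSK3A hairpins in 13 of 24 cases and fell in 0, with a median of 0.17, against 0.00 over all genes. PSMB9, an immunoproteasome subunit, rose by 0.65 ± 0.06 (adjusted p = 5.5e-09) and passed in each line. TRIM22 rose by 0.49, the antiviral GTPase gene MX2 by 0.47 and IRF9, a subunit of the interferon-activated factor ISGF3, by 0.40, all with an SE of 0.05 to 0.06. By line 9 of 24 rose in MOLM-14 (15.0% of all genes passed there), 7 in U937 (6.06%), 6 in HL-60 (8.40%) and 1 in THP-1 (1.71%). The GSK3B hairpins gave 1 of 24, near the 3.10% of all genes, PSMB9 (0.23, adjusted p = 0.032).

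Histone messenger RNA processing, the process in which CASP8AP2 acts, had 0 of 8 measured genes higher and 3 lower with the GSK3A hairpins (median -0.11). ZNF473, a zinc finger protein of the U7 complex, gave -0.30 ± 0.07 (adjusted p = 0.0028), CSTF2, a cleavage factor, -0.21 ± 0.04 (adjusted p = 0.00035) and NPAT, an activator of histone genes, -0.12 ± 0.04 (adjusted p = 0.023). In MOLM-14, where 15.0% of all genes passed, 3 fell and 1 rose, and in each other line 0 passed. NCBP2, a subunit of the cap-binding complex, fell with the GSK3B hairpins (-0.32 ± 0.03, adjusted p = 3.1e-08) and gave 0.03 with GSK3A.

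**Figure D5:**
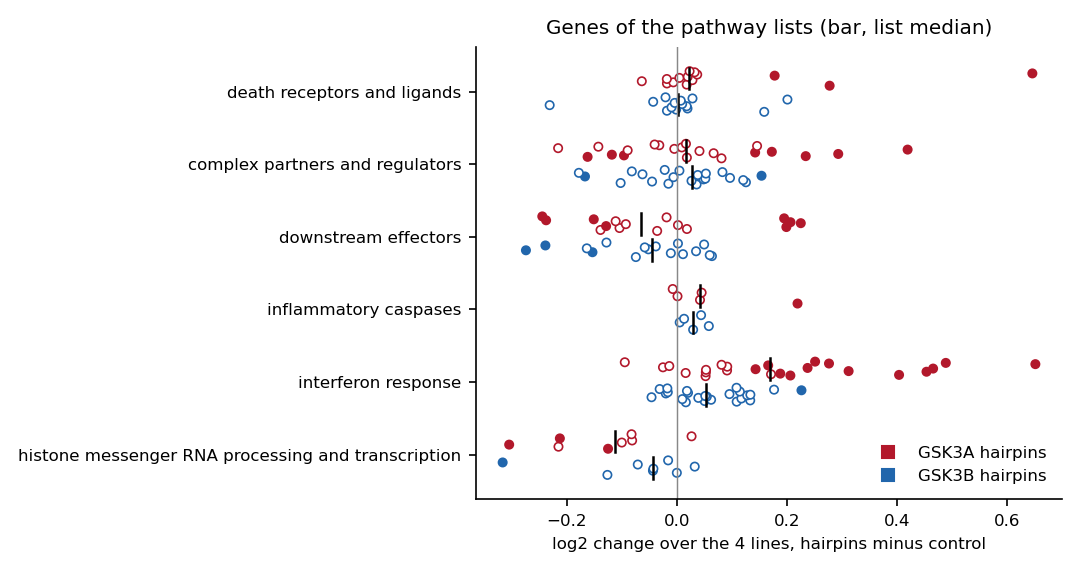
Log2 change over the 4 lines (x axis, hairpins minus control) of each measured gene of the 6 lists, GSK3A hairpins in red and GSK3B hairpins in blue, filled at an adjusted p under 0.05, with a bar at each list's median. The interferon response genes reach 0.65 with a median of 0.17 for GSK3A, and the histone genes have a median of -0.11.

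Monocytic markers moved with the GSK3A hairpins over the lines as well: 4 of 5 measured rose, where 20.1% of all genes passed (CD86 by 0.91, FCGR1A by 0.49, ITGAM by 0.39 and CD14 by 0.33, log2), and CSF1R gave 0.07. By line 2 of 5 rose in HL-60 (8.40% of all genes passed there), 2 in U937 (6.06%), 1 in MOLM-14 (15.0%) and 1 in THP-1 (1.71%). The summed intensity of the 5 was 1017 to 2128 with the GSK3A hairpins, against 793 to 843 with the control in HL-60. It was 1354 to 1420, against 990 to 1042, in THP-1, 309 to 770.2, against 217 to 440, in U937, and 792 to 1577, against 753 to 854, in MOLM-14. In control THP-1 most of this sum was FCGR1A, which read 793 to 843. CD14 was below the array medians in the control arrays of THP-1, MOLM-14 and U937 (6.83 to 14.7). Of the promyelocytic granule genes 0 of 5 rose and 1 fell with the GSK3A hairpins, near the share of all genes, with a list median of -0.39. This was MPO (-0.39), while CTSG (-0.44) and PRTN3 (-0.43) did not pass. ELANE and AZU1 lay above the list median and did not pass either. The summed intensity of these granule genes was 7229 to 9769 with the GSK3A hairpins, against 10752 to 12189 with the control, in HL-60. In THP-1 it was 7491 to 8730, against 9325 to 9786. The groups overlapped in MOLM-14 (6596 to 11513, against 7053 to 11599.5) and in U937 (5797 to 14991, against 8102 to 15705). With the GSK3B hairpins 1 of 5 fell, again MPO (-0.40), and the list median was -0.09. The part of these markers in the changes of CASP8, TNFSF10 and CASP8AP2 was not tested.

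The genes most like each member over the 44 arrays, after each line's mean was subtracted, were found by Pearson's r, given as a description since the arrays share hairpins and plate columns. CASP8AP2 had the closest, with MSH6 (0.93), UBR7 (0.90) and MCM3 (0.88), of which MSH6 acts in mismatch repair and MCM3 in the replicative helicase. TNFSF10 was most like IL10RB (0.85), MOSPD1 (0.81) and PRMT2 (0.79), and CASP8 most like DYRK1A (0.81), STAM (0.80) and RTN4 (0.80). FADD was most like HSP90AA1 (0.84), TUBA4A (0.82) and PELO (0.81). CASP10 (highest 0.68, with USB1) and CFLAR (0.65, with UBB) had no gene as close. Among the 15 pairs of members r lay between -0.59, for TNFSF10 with CASP8AP2, and 0.50, for CASP8 with TNFSF10.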

How the data were processed

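The deposited table holds 1 intensity per probe set and array on a linear scale. RMA and MAS5 are named in the submitters' processing notes, and the sources used here do not say which of them the authors applied, in which version or with which settings. From the deposited intensity, log2(value + 16) was computed and quantile-normalized, because the array medians spanned 0.154 on the log2 scale. The pseudocount of 16 makes changes of dim probe sets smaller. All 22215 probe sets that are not controls entered a limma fit (version 3.58.1, R 4.3.3) with a mean for each of 20 groups (line and hairpin) and 24 residual degrees of freedom. P-values are two-sided and Benjamini-Hochberg adjusted over these probe sets, with a threshold of 0.05. Changes over the lines average the hairpins and lines with equal weight. A gene was counted on the probe set with the highest mean. Gene symbols came from the platform's annotation, updated through Entrez identifiers, and positions and promoters from RefSeq (GRCh38.p14). The fit was tested on simulated data.

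The members and lists were chosen with earlier results of these data known. Named genes are all members, both targets, up to 4 genes per list with the smallest adjusted p with either target, and the 3 most like genes per member. Plate columns were read from well positions in the labels. Replicates of the same columns had correlated deviations in MOLM-14 (r 0.60 to 0.76) and U937 (0.75 to 0.81) and not in HL-60 (-0.05 to 0.15) and THP-1 (-0.11 to 0.18). The replicate numbers were not taken as pairs. The main fit holds no term for the plate columns, so the deviations in MOLM-14 and U937 stay in its spread. Fits within plate columns use a mean for each line and target, so that their spread holds differences between hairpins. Alternatives were other normalizations and pseudocounts, a filter on dim probe sets, 1 row per gene, replicate blocks, hairpin as a random block, and leaving out a line or an array. No sample was left out of the main fit, and no 2 arrays were identical. The number of arrays limits the precision.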

Additional observations from a re-analysis of the deposited data

Results flagged for a closer look

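The change of CASP8AP2 with the GSK3A hairpins differed between the 4 lines (moderated F-test, adjusted p = 3.59e-09). It was -0.84 ± 0.05 in MOLM-14, -0.23 ± 0.05 in THP-1, -0.16 ± 0.05 in U937 and 0.18 ± 0.05 in HL-60 (log2, SE). The change of CASP10 differed as well (adjusted p = 0.0477), with -0.14 ± 0.07 in THP-1, 0.07 ± 0.07 in U937, 0.15 ± 0.07 in MOLM-14 and 0.25 ± 0.07 in HL-60, on a probe set below the array median on 37 of 44 arrays. No group held enough arrays for a check on outlying arrays within it, and these F-tests were not repeated without single arrays.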

How the results depend on the processing

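CASP8 and TNFSF10 stayed higher with the GSK3A hairpins under every alternative run (0.31 to 0.54 and 0.19 to 0.42) and stayed called in each one with a test, except TNFSF10 within plate columns 7 to 11 (0.26, adjusted p = 0.14). The median over a gene's probe sets has no test. The number of members called with GSK3A was 4 of 6. It was 1 within columns 7 to 11 (CASP8), 2 without MOLM-14 (CASP8 and TNFSF10), 5 with the replicate block by label number and 3 to 4 when single arrays were left out. It was also below 4 with a pseudocount of 1, with hairpin as a random block, within columns 1 to 6 and without HL-60. Only CFLAR was lost in these. The difference between the targets was called for 4, for 2 within columns 1 to 6, 2 within columns 7 to 11 and 2 without MOLM-14 (CASP8 and TNFSF10 each time), and for 3 to 4 without single arrays (CASP10 was the call lost each time). CASP10 also lost that call with median scaling, with hairpin as a random block, without HL-60 and without U937. With GSK3B 0 were called, but 1 with a pseudocount of 64 (CFLAR), 1 with a replicate block by label number (CFLAR, -0.19), 2 with a replicate block by plate columns (CASP8, 0.14, adjusted p = 0.014, and CFLAR, -0.16, adjusted p = 0.0033), 2 without U937 (CASP8AP2 and CFLAR) and 0 to 1 without single arrays (CFLAR without control 2 of HL-60, control 3 of U937 or the first shGSK3B_1 array of U937, CASP8AP2 without either shGSK3A_6 array of U937). Control lines differed for 5 genes throughout. The share of all genes that passed was counted in the main fit only, so the counts of members under the alternatives have no such share beside them. The replicate block by label number also called CASP10 with GSK3A (0.10, adjusted p = 0.021) and lost CASP8 on 207686_s_at (0.13). CASP10 was also called without the first shGSK3A_5 array of THP-1 or the first shGSK3A_6 array of MOLM-14 (0.068 to 0.099 over single arrays).

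CFLAR with GSK3A lost its call with a pseudocount of 1, with hairpin as a random block, within either set of columns, without HL-60, THP-1 or MOLM-14, and without any of 15 single arrays (HL-60 control 1 or 3 or the first shGSK3A_5 or shGSK3A_6 array, THP-1 control 1 or 2, first shGSK3A_5 or second shGSK3A_6 array, MOLM-14 control 1 or 3 or first shGSK3A_6 array, U937 control 1 or 2 or the second shGSK3A_5 or shGSK3A_6 array), with -0.18 to -0.13 over all 44 arrays left out in turn. The median of its probe sets reversed it (0.020). Values near 0 changed sign. FADD with GSK3A was -0.0041 with median scaling, -0.013 within columns 7 to 11, -0.015 without HL-60 and -0.017 to 0.041 without single arrays, and with GSK3B -0.056 to 0.010. CASP10 with GSK3B was 0.0084 with the replicate block by label number, 0.0032 within columns 1 to 6, 0.0034 without THP-1, 0.0019 without U937 and -0.022 to 0.0023 without single arrays. CASP8 on 207686_s_at with GSK3B was -0.0017 with cyclic loess, -0.0035 with a pseudocount of 1, -0.043 with the replicate block by label number, -0.0026 within columns 1 to 6, -0.030 without HL-60, -0.013 without THP-1, -0.020 without U937 and -0.026 to 0.022 without single arrays. The causes were not tested, beyond the smaller number of arrays in the fits by line or column. Dim probe sets (CASP10, 214329_x_at of TNFSF10) limit what could be called there.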
